A study of Homo sapiens with 6 samples.

Results

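Histone deacetylases remove acetyl groups from lysines of histones and of other proteins, and in the nucleus they act mostly inside co-repressor complexes that silence transcription. Maspin, a serpin, has been described as binding HDAC1 and lowering its activity. The study found maspin mainly in the cytoplasm of the cell line used here, and cytoplasmic maspin is its subject. By sequence and partners the zinc-dependent deacetylases HDAC1 to HDAC10 fall into class I (HDAC1, HDAC2, HDAC3 and HDAC8), class IIa (HDAC4, HDAC5, HDAC7 and HDAC9) and class IIb (HDAC6 and HDAC10). The 10 genes HDAC1 to HDAC10 were followed here through every array probe whose gene symbol is one of these names, which gave 13 probes of 24460 on the array, and 10 of 19770 named genes. The arrays read mRNA and carry no information on binding, localisation or enzyme activity.

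Gene expression was measured in stable lines of MDA-MB-231, a breast cancer cell line that lacks the hormone receptors and HER2 amplification and invades readily. MB-231-maspin was transduced with a lentivirus that carries maspin joined by a P2A peptide to the fluorescent protein ZsGreen behind a CMV promoter, and MB-231-control with the same kind of vector carrying ZsGreen alone. Both lines were selected with blasticidin and are pools of surviving clones. Total RNA of 3 samples labelled MB-231-maspin and 3 labelled MB-231-control was hybridised in 1 colour, 1 sample per array; these are called the maspin-labelled and the control-labelled arrays. The labels name no separate cultures behind the 3 samples of a line, so every p-value below reflects only how far these samples scatter, and that scatter may be technical.

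The values are normalized intensities, which the authors made by subtracting the array background and scaling each array to a median of 25; a probe close to background is blank. Values were present for 89.4% to 91.0% of the probes on maspin-labelled arrays and for 87.1% to 91.3% on control-labelled arrays. The probe of SERPINB5, the gene of maspin, read 4.20, 2.79 and 4.40 on maspin-labelled arrays, against 5.10, 5.61 and 4.11 on control-labelled arrays. The probe was near background on all 6 arrays, above the brightest negative control spot on 5 of them, and on MB-231-control replicate 2 its 5.61 lay below that spot at 9.35. It was not brighter where the transgene is expected. Whether it lies in the stretch that the vector carries is not given in the sources used here, so it does not check the labels. The study itself checked the excess of maspin in MB-231-maspin by RT-qPCR and western blot, and the directions below rest on the array labels. Of the markers of the parent line, VIM was bright on all 6 arrays (12149 to 12285 on the maspin-labelled and 11687 to 13757 on the control-labelled) and ESR1 was blank on all 6. The epithelial markers KRT19, EPCAM and CDH1 also had values on all 6. KRT19 read 1040 to 1233 on maspin-labelled and 1166 to 1332 on control-labelled arrays, EPCAM 93.1 to 107 on maspin-labelled and 93.8 to 118 on control-labelled arrays, and CDH1 49.97 to 59.4 on maspin-labelled and 46.3 to 63.7 on control-labelled arrays. The leukocyte marker PTPRC was blank or at most 2.03 on every array, and COL1A1 was blank or at most 1.65. Of 5 leukocyte markers matched, 1 was bright enough to test. This was CD14, which read 24.6, 25.2 and 22.1 on maspin-labelled arrays, against 19.7, 21.7 and 16.0 on control-labelled arrays. The lines did not overlap (log2 fold change 0.33, limma adjusted p = 0.292, 0.0260 unadjusted), and the part of this in the results below was not tested. The leukocyte marker CD3E, too dim to test, went the other way without overlap. It read 4.85, 4.07 and 5.18 on maspin-labelled arrays, against 5.33, 6.44 and 5.36 on control-labelled arrays. Of 7 fibroblast and endothelial markers 2 were tested, DCN (54.6 to 66.8 on maspin-labelled and 57.8 to 67.9 on control-labelled arrays) and PDGFRB (31.0 to 37.7 on maspin-labelled and 26.4 to 35.6 on control-labelled arrays), neither with an unadjusted p under 0.05.

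The promoters of HDAC9, HDAC3 and HDAC1 are shown because the first 2 genes carry the array differences described below and the last is the enzyme named as a partner of maspin. Each is the 150 bases just upstream of a transcription start in RefSeq (GRCh38.p14), written along the gene's strand. Capitals mark the GC box core GGGCGG, or CCGCCC where it lies on the opposite strand.
HDAC9, chr7:18086675-18086824, plus strand, the most upstream of its 5 starts: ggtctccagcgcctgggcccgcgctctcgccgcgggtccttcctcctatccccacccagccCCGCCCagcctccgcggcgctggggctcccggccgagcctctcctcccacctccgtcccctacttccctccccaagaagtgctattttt
HDAC3, chr5:141636850-141636999, minus strand: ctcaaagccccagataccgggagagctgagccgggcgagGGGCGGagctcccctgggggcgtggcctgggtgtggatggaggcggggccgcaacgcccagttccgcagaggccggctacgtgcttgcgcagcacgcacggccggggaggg
HDAC1, chr1:32291933-32292082, plus strand, with 2 overlapping matches: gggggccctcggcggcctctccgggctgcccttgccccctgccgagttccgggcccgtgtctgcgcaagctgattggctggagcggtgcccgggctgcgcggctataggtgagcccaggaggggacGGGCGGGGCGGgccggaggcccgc
GC content was 71.3% for this HDAC9 start, 74.0% for HDAC3 and 78.0% for HDAC1, against a median of 60.0% over 35116 windows of this length. The other 4 starts of HDAC9 had 44.7%, 47.3%, 52.0% and 41.3% and held no match. Which start the array probe of HDAC9 reads was not tested. The motif stood in at least 1 start of 6 of the 9 deacetylase genes matched in the promoter table, in 8 of their 19 starts, and in 36.8% of all 35116 windows.

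For testing, a probe needed a mean above 10 in either line and a value on at least 2 arrays of each line, and 14903 probes, 12 of the 13 deacetylase probes among them, met this. HDAC7 met it only through control-labelled arrays. No deacetylase probe passed limma at an adjusted p under 0.05, a threshold that 0.845% of all tested probes passed. At an unadjusted p under 0.05, 1 of the 12 (HDAC9) was higher on maspin-labelled arrays, against 9.48% of all tested probes. None of the 12 was lower at that threshold, against 3.87% of all. HDAC9 and HDAC3 were the 2 probes of the 12 with all maspin-labelled arrays above all control-labelled arrays, a pattern found in 13.7% of all probes. None showed the opposite order, which 6.84% of all probes did. Counts of this size lie near the shares over all probes and are no result about the family.

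**Figure D1:**
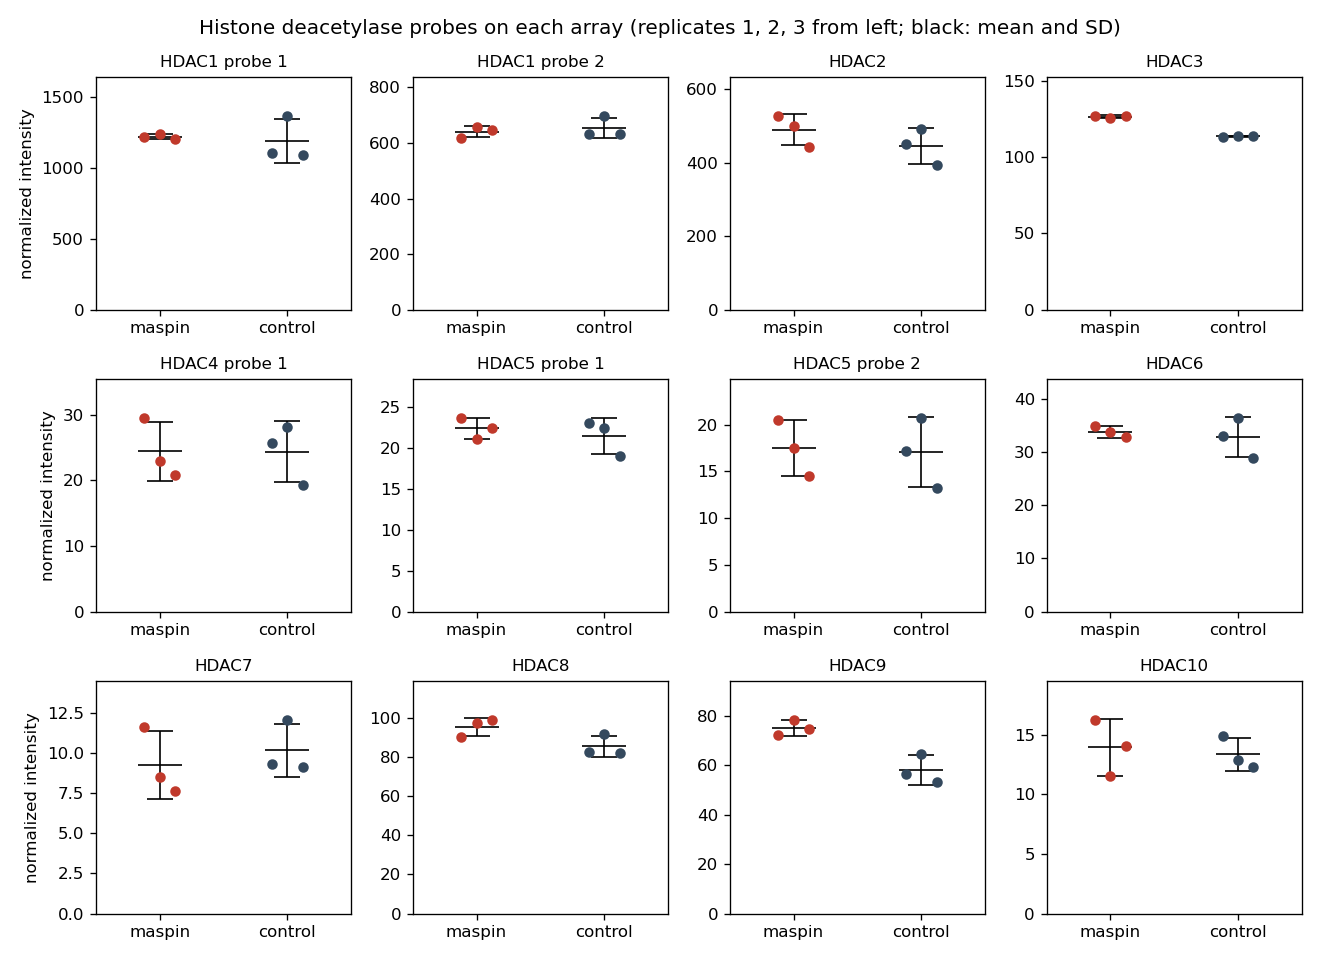
Normalized intensity (linear axis from 0) of the 12 tested deacetylase probes on each array, maspin-labelled arrays at the left in red and control-labelled arrays at the right in blue, with mean and SD in black. The arrays of the 2 lines do not overlap for HDAC3 and HDAC9 and overlap for the other 10 probes.

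HDAC9, a class IIa enzyme that represses MEF2 transcription factors in muscle, showed the largest difference of the 12 probes. It read 72.2, 78.4 and 74.8 on maspin-labelled arrays, against 56.5, 64.7 and 53.3 on control-labelled arrays. The lowest maspin-labelled array lay above the highest control-labelled one. The means were 75.1 ± 3.16 and 58.2 ± 5.91 in MB-231-maspin and MB-231-control (SD, n = 3 each), a ratio of 1.29 between the geometric means. The log2 fold change was 0.37 (SE 0.09, 95% interval 0.16 to 0.59), with an adjusted p of 0.151 in limma (0.00395 unadjusted). Before background subtraction and scaling the lines did not overlap either, with raw signals of 229, 264 and 201 on maspin-labelled arrays and 179, 198 and 178 on control-labelled arrays. The unadjusted p stayed under 0.05 in all 16 alternative analyses, and the adjusted p crossed 0.05 in 1 of them, normexp background correction with quantile normalization (log2 fold change 0.24, adjusted p = 0.0450 in limma, the range over the alternatives being 0.0450 to 0.560). Quantile normalization alone gave 0.35 and an adjusted p of 0.0926.

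The other class IIa probes showed no such separation. HDAC4, which shuttles between nucleus and cytoplasm, read 29.5, 23.0 and 20.9 with probe H200010488 on maspin-labelled arrays, against 25.7, 28.2 and 19.3 on control-labelled arrays. The ranges lay on top of each other, and the log2 fold change was 0.0074 with a 95% interval of -0.39 to 0.40 (limma adjusted p = 0.991). The other HDAC4 probe (DHsGV10001564) was the 1 deacetylase probe left untested. It was blank on all but 1 maspin-labelled array (1.91) and on 1 control-labelled array, the other control-labelled values being 1.55 and 1.495. None of these values reached the brightest negative control spot of its array.

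HDAC5, which shares the MEF2-binding and shuttling behaviour of HDAC4, had a pair of tested probes. The first (H200001725) read 23.7, 21.1 and 22.4 on maspin-labelled arrays, against 23.0, 22.4 and 19.0 on control-labelled arrays, a log2 fold change of 0.07 (-0.16 to 0.29). The second (AHsV10002220) read 20.5, 17.5 and 14.5 on maspin-labelled arrays, against 17.2, 20.7 and 13.2 on control-labelled arrays, a log2 fold change of 0.05 (-0.37 to 0.46). Both HDAC5 probes overlapped between the lines, with limma adjusted p of 0.814 and 0.932. HDAC7, known for repressing MEF2 targets in thymocytes and endothelium, was the probe with the lowest fold change of the family. It read 11.6, 8.48 and 7.63 on maspin-labelled arrays, against 9.32, 12.1 and 9.10 on control-labelled arrays. The lines overlapped, since the second-highest of the 6 values was a maspin-labelled one, and the log2 fold change was -0.15 (-0.54 to 0.25, limma adjusted p = 0.754).

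Among class I enzymes, HDAC3, the catalytic subunit of the NCoR and SMRT complexes, read slightly higher on maspin-labelled arrays, with very little scatter. It read 127.1, 125.7 and 127.2 on maspin-labelled arrays, against 113.6, 114.3 and 113.9 on control-labelled arrays. The values of each line agreed within a coefficient of variation of 0.689% in MB-231-maspin and 0.327% in MB-231-control, and the lines did not overlap. The log2 fold change was 0.15 (SE 0.07, 95% interval -0.0053 to 0.31), a ratio of 1.11, with an adjusted p of 0.384 in limma (0.0564 unadjusted).

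For HDAC3 the call depended on how the scatter was estimated. Its residual SD was 0.0078 on the log2 scale, and only 2 of the 14903 tested probes had a smaller one. limma draws such values toward the other probes and used 0.084 in its place. The methods' t-test, which uses the probe's own SD, gave HDAC3 an adjusted p of 0.0283, the lowest of a range up to 0.761 over the alternatives, and called no other deacetylase. In the raw signal, which is not scaled between arrays, the lines overlapped, with 351, 381 and 294 on maspin-labelled arrays and 290, 297 and 300.1 on control-labelled arrays.

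HDAC1 and HDAC2 share the SIN3, NuRD and CoREST complexes. HDAC1 had a pair of probes, and the first (AHsV10000721) read 1217, 1235 and 1200.1 on maspin-labelled arrays, against 1106, 1365 and 1087 on control-labelled arrays. The second (H200010284) read 618, 656 and 647 on maspin-labelled arrays, against 632, 698 and 633 on control-labelled arrays. On both probes the highest value of the 6 was that of MB-231-control replicate 2, and the lines overlapped. The log2 fold change of HDAC1 was 0.05 (-0.19 to 0.28) on the first probe and -0.03 (-0.21 to 0.15) on the second, with limma adjusted p of 0.882 and 0.902. A difference over 0.28 on the log2 scale, in either direction, lies outside both 95% intervals.

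HDAC2 read 527, 500.0 and 443 on maspin-labelled arrays, against 451, 492 and 393 on control-labelled arrays. The ranges overlapped, and the log2 fold change was 0.14 (-0.11 to 0.39, limma adjusted p = 0.626). HDAC8, which deacetylates the cohesin subunit SMC3, read 90.3, 97.2 and 99.0 on maspin-labelled arrays, against 82.4, 91.9 and 82.2 on control-labelled arrays. A single value kept the lines from separating, that of MB-231-control replicate 2, which lay above MB-231-maspin replicate 1. The log2 fold change of HDAC8 was 0.16 (-0.03 to 0.35, limma adjusted p = 0.447, 0.0897 unadjusted).

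Of the class IIb enzymes, HDAC6 is a cytoplasmic deacetylase of tubulin and cortactin that also binds ubiquitin. It read 34.9, 33.7 and 32.8 on maspin-labelled arrays, against 33.0, 36.4 and 28.9 on control-labelled arrays. The maspin-labelled values lay inside the control-labelled range, and the log2 fold change was 0.05 (-0.18 to 0.28, limma adjusted p = 0.860). HDAC10, a polyamine deacetylase, read 16.2, 11.5 and 14.1 on maspin-labelled arrays, against 14.9, 12.9 and 12.3 on control-labelled arrays. These too overlapped, with a log2 fold change of 0.05 (-0.26 to 0.37, limma adjusted p = 0.901).

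**Figure D2:**
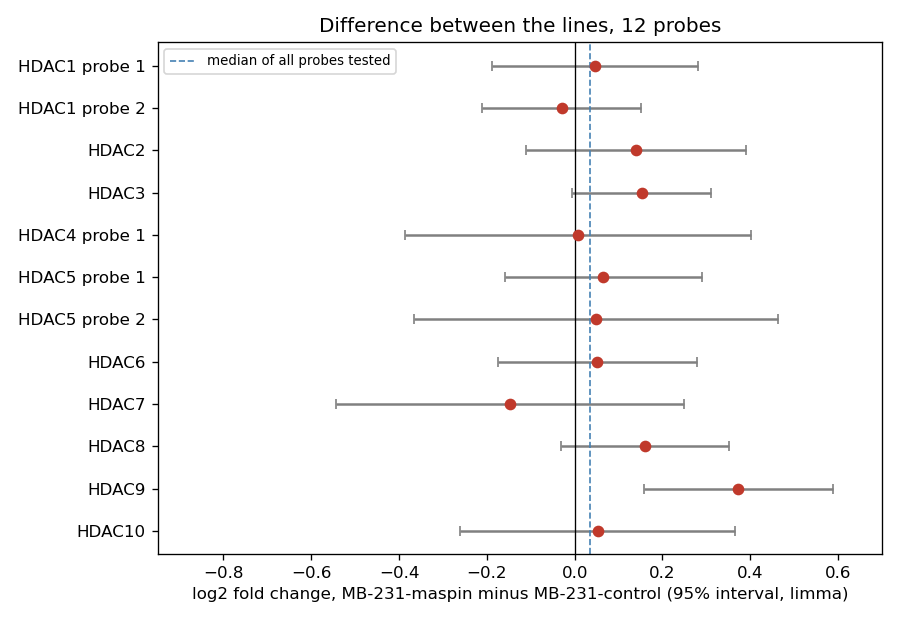
Log2 fold change of each tested deacetylase probe, MB-231-maspin minus MB-231-control, with the 95% interval from limma, and the median of all tested probes as a dashed line. The interval of HDAC9 (0.16 to 0.59) leaves out 0, and those of the other 11 probes include it.

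As a family the probes lay slightly on the positive side, as did the arrays as a whole. The log2 fold change was above 0 for 10 of the 12 deacetylase probes, and for 59.3% of all tested probes. The median was 0.05 for the 12 probes, with a range of -0.15 to 0.37, and 0.03 for all tested probes. By class the median was 0.14 over 5 class I probes, 0.05 over 5 class IIa probes and 0.05 over 2 class IIb probes. The precision was that of the rest of the array, with a median SE of 0.10 for the deacetylase probes and 0.10 for all tested probes.

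The arrays of a line were not equally high. On MB-231-maspin replicates 1, 2 and 3 the median log2 deviation of the 12 probes from their own means was 0.12, 0.03 and 0.0012, and over all tested probes 0.05, 0.01 and 0.00077. On MB-231-control replicates 1, 2 and 3 it was -0.04, 0.09 and -0.17 for the deacetylases, and -0.01, 0.08 and -0.12 over all tested probes. The deacetylases thus followed the array-wide shifts, with MB-231-control replicate 2 high and replicate 3 low. Among control-labelled arrays, replicate 2 held the highest value for 10 of the 12 deacetylase probes and for 70.7% of all probes. Without that array 4 of the 11 deacetylase probes then tested had an unadjusted p under 0.05 in limma (HDAC1 probe 1, HDAC3, HDAC8 and HDAC9), all higher in MB-231-maspin, against 21.6% of all probes, and none passed after adjustment.

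**Figure D3:**
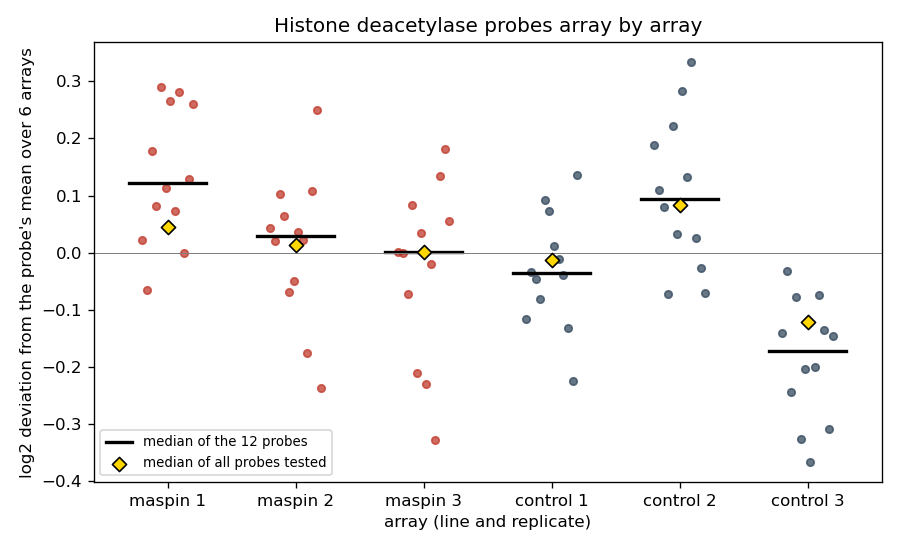
Log2 deviation of each of the 12 deacetylase probes from its mean over the 6 arrays (points), with the median of the 12 (black line) and of all tested probes (yellow diamond), maspin-labelled arrays first. The medians run from -0.17 on MB-231-control replicate 3 to 0.12 on MB-231-maspin replicate 1, and the diamonds shift in the same directions.

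The genes that work with the deacetylases were taken as lists, each gene by its brightest tested probe, and none of them passed limma at an adjusted p under 0.05. Where a gene had several probes, the others were not read here. Over all tested probes, 13.7% had every maspin-labelled array above every control-labelled one, and 6.84% had the opposite order. Lines without overlap in the lists are to be read against these shares. Of 33 subunits of the co-repressor complexes 31 were tested. Of these, 4 were higher at an unadjusted p under 0.05, a threshold that 9.48% of all tested probes passed in this direction, none was lower, and the median log2 fold change was 0.07. Beside MBD2 and GPS2 they were the NuRD subunits CHD3 (0.50, with overlapping arrays) and MTA3 (0.20), named after their values were seen. MBD2, the methyl-CpG binding subunit of NuRD, read 193, 223 and 219 on maspin-labelled arrays, against 154, 176 and 166 on control-labelled arrays (log2 fold change 0.36, limma adjusted p = 0.157). GPS2, a subunit of the complexes built around HDAC3, read 514, 536 and 530.0 on maspin-labelled arrays, against 440, 464 and 414 on control-labelled arrays (0.26, adjusted p = 0.203). Neither gene overlapped between the lines. The co-repressor subunit TBL1X, named after its values were seen, lay lower on every maspin-labelled array. It read 74.7, 66.5 and 74.5 there, against 78.3, 84.5 and 75.2 on control-labelled arrays (-0.14, limma adjusted p = 0.512).

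Of the enzymes with the same or the opposite chemistry, 6 sirtuins were tested, and HDAC11 was not analysed here. The NAD-dependent SIRT1 read 51.9, 51.3 and 47.3 on maspin-labelled arrays, against 35.8, 48.6 and 41.2 on control-labelled arrays (log2 fold change 0.27, limma adjusted p = 0.374). It was the 1 sirtuin with an unadjusted p under 0.05, where 9.48% of all tested probes were higher at that threshold. The SIRT1 arrays overlapped, whereas SIRT6, with -0.10 (adjusted p = 0.615), lay lower on every maspin-labelled array. Of 11 histone acetyltransferases tested, 1 was higher at an unadjusted p under 0.05 (KAT2B, 0.26, adjusted p = 0.254), against the same 9.48% of all. NCOA1 had 0.18 (adjusted p = 0.493). The median log2 fold change was 0.05 for the sirtuins and 0.06 for the acetyltransferases.

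Of 17 tested partners and kinases of the class IIa enzymes, 1 was higher at an unadjusted p under 0.05, against 9.48% of all tested probes. This was YWHAE, an adaptor that holds phosphorylated class IIa enzymes in the cytoplasm, with 110, 104 and 117 on maspin-labelled arrays and 86.2, 92.3 and 86.1 on control-labelled arrays (log2 fold change 0.33, limma adjusted p = 0.146). Its paralog YWHAQ had 0.20 (adjusted p = 0.385). The other listed paralogs, YWHAB, YWHAG, YWHAH and YWHAZ, had -0.05, 0.04, 0.18 and 0.13, each with overlapping arrays. They were named after their values were seen. The log2 fold changes of the 17 ran from -0.17 to 0.33, and 10 of them were above 0, against 59.3% of all tested probes. Of 8 substrates and partners of HDAC6, 1 was higher at that threshold, against the same 9.48% of all. This was the co-chaperone BAG3 (0.18, adjusted p = 0.325), and CTTN, which encodes cortactin, had -0.10 (adjusted p = 0.613). The median was 0.10 for the class IIa partners and 0.05 for those of HDAC6.

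The 11 genes of cohesin and of its acetylation cycle all had a log2 fold change above 0, with a median of 0.16, against 59.3% above 0 and a median of 0.03 over all tested probes. This list was chosen with earlier results of these data known. MB-231-control replicate 3, low over all tested probes (-0.12), held the lowest control-labelled value for most of the 11, SMC3, STAG1 and ESCO2 among them. Its part in the list's median was not tested. Of the 11, 3 were higher at an unadjusted p under 0.05, against 9.48% of all, among them WAPL, the cohesin release factor, with 0.22, named after its values were seen. SMC3, the substrate of HDAC8, read 285, 296 and 290 on maspin-labelled arrays, against 250.4, 267 and 244 on control-labelled arrays (0.19, limma adjusted p = 0.318). STAG1, a cohesin subunit, had 0.23 (adjusted p = 0.259). Neither overlapped between the lines. The highest value of the list, 1.02 for the acetyltransferase gene ESCO2, which was singled out after its values were seen, came from 1 array. ESCO2 read 181, 218 and 184 on maspin-labelled arrays, and 191, 217 and 21.2 on MB-231-control replicates 1, 2 and 3 (limma adjusted p = 0.612).

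Genes that have been placed under HDAC1 and maspin in other cells were read last. CDKN1A, a cyclin-dependent kinase inhibitor, read 171, 175 and 193 on maspin-labelled arrays, against 137, 146 and 137 on control-labelled arrays. The lines did not overlap, and the log2 fold change was 0.36 (SE 0.08, limma adjusted p = 0.124, 0.00214 unadjusted). The proapoptotic gene BAX read 512, 530.0 and 558 on maspin-labelled arrays, against 460, 520 and 454 on control-labelled arrays (0.16, adjusted p = 0.465). KRT18, a simple-epithelial keratin, had the opposite sign on the brightest tested of its 3 probes. It read 3832, 3757 and 3181 on maspin-labelled arrays and 3993, 4361 and 3784 on control-labelled arrays (-0.18, limma adjusted p = 0.492). Both BAX and KRT18 overlapped between the lines.

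Of 8 genes known to respond to deacetylase inhibitors, CDKN1A among them, 3 were higher at an unadjusted p under 0.05, against 9.48% of all tested probes, and the median log2 fold change was 0.12. This list was chosen with earlier results of these data known, so the count is no result about such genes. The list mixes genes that inhibitors raise with TYMS and CTPS1, which they are known to lower. TYMS was the third of the 3 (0.27, limma adjusted p = 0.258), CTPS1 had 0.12 and GSN, which inhibitors raise, had -0.15, these 3 being named after their values were seen. TXNIP, an inhibitor of thioredoxin, read 180, 175 and 180 on maspin-labelled arrays, against 135, 140.3 and 135 on control-labelled arrays. The lines did not overlap, and TXNIP had the smallest adjusted p of all the listed genes (log2 fold change 0.38, SE 0.07, limma adjusted p = 0.0635). It passed with log2(value + 10) (0.36, adjusted p = 0.0369) and without MB-231-control replicate 2 (0.40, adjusted p = 0.0476), with a range of 0.0369 to 0.396 over its alternatives.

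**Figure D4:**
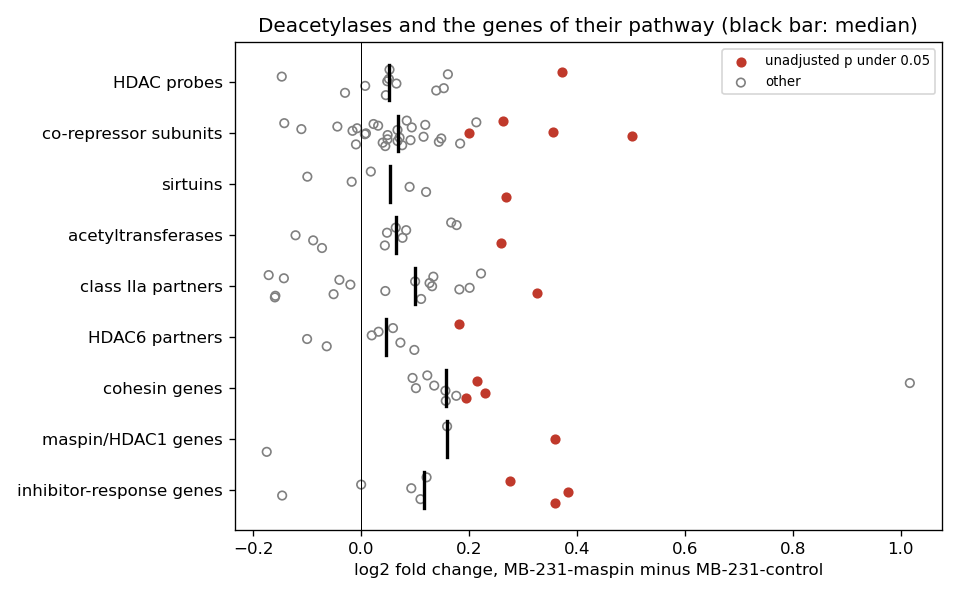
Log2 fold change, MB-231-maspin minus MB-231-control, of the deacetylase probes and of each list of related genes, 1 point per probe or gene, red where the unadjusted limma p was under 0.05, with the median as a black bar. Red points lie to the right of 0 in every list, none of them passed after adjustment, and the point at 1.02 is ESCO2. Over all tested probes, 9.48% were higher and 3.87% lower at that threshold.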

How the data were processed

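RNA of the 6 samples was amplified, coupled to Cy5 and read on 3D-Gene human oligonucleotide arrays. The deposited scanner files give a raw intensity, and a normalized intensity that the authors made by subtracting 1 background value per array (67.8 to 70.3) and scaling the array to a median of 25. A further deposited table, for the series, gives these values rounded to whole numbers, treated here as a score, and differed from the scanner files by at most 0.5. Log2 normalized intensities of 14903 probes (mean above 10 in either line, as in the study's filter, and at least 2 values per line) were fitted with limma 3.58.1 in R 4.3.3, two-sided, MB-231-maspin minus MB-231-control, without covariates, with Benjamini-Hochberg adjustment over all probes. Residual degrees of freedom were 4 and those of limma's prior 4.07. An exact permutation test of 3 arrays against 3 cannot go below p = 0.1. Named were every deacetylase probe, up to 4 members of each list past the adjusted threshold or else the 2 with the smallest p, and SERPINB5, KRT18, CDKN1A and BAX. The deacetylases and the lists were chosen with earlier results of these data known. Genes of the lists matched by symbol. Promoter sequences came from RefSeq and tables from Python 3.11.15 with pandas 2.3.3 and matplotlib 3.10.9. The code was tested on simulated data. The Student t-test named in the methods was run as an alternative, on log2 values with the same adjustment. Further alternatives were a trended robust prior, other filters, quantile normalization, normexp followed by quantile normalization, log2(value + 10), the rounded table, 1 probe per gene, a replicate block and each array left out. No slide or scan date was used. The number of arrays limits the precision.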

Additional observations from a re-analysis of the deposited data

How the results depend on the processing

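Across all probes limma called 126 at an adjusted p under 0.05. The count was 25 with the t-test on log2 values, 48 without the filter on the mean, 49 with a mean above 50, 286 with normexp followed by quantile normalization (157 with quantile normalization alone) and 37 to 208 with 1 array left out, the highest without MB-231-control replicate 2. At an unadjusted p under 0.05 it was 1990, against 1213 with a mean above 50 and 1147 to 3842 with 1 array left out. The count of deacetylase probes called, 0, became 1 with the t-test on log2 values (HDAC3) and 1 with normexp followed by quantile normalization (HDAC9), and stayed 0 with any array left out. At an unadjusted p it was 1, against 2 with the t-test on log2 values, 2 with a mean above 50, 2 with log2(value + 10) and 1 to 4 with 1 array left out. The median log2 fold change of the deacetylase probes, 0.05, ran from -0.02 to 0.15 with 1 array left out, the lowest without MB-231-control replicate 3, and was 0.15 with a mean above 50 (6 probes) and 0.016 with normexp followed by quantile normalization.

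HDAC2, HDAC3, HDAC7, HDAC8 and HDAC9 kept their sign in every alternative that gave a value. HDAC7 gave none without MB-231-control replicate 2, in the rounded table and with a mean above 50, which left 6 of the 12 probes. HDAC1 probe 1 had -0.0084 with quantile normalization, -0.017 with normexp followed by quantile normalization and -0.013 to 0.15 with 1 array left out. HDAC4 probe 1 had -0.00019 with normexp followed by quantile normalization and -0.15 to 0.12 with 1 array left out. With 1 array left out the range was -0.054 to 0.017 for HDAC1 probe 2, -0.020 to 0.12 and -0.12 to 0.20 for the HDAC5 probes, -0.035 to 0.13 for HDAC6 and -0.065 to 0.18 for HDAC10. The causes were not tested. All of these values lie within the 95% interval printed for the probe. They come from the same arrays as that interval, so this is no separate check. At 3 arrays per line differences of this size were not resolved.

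Deviations of same-numbered arrays correlated at -0.33, 0.48 and 0.22 for replicates 1, 2 and 3, and only MB-231-maspin replicate 2 correlated best with its own number, so the numbers were not taken to pair the arrays. The replicate block gave 139 probes called and 0 deacetylase probes.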
